A study of Mus musculus with 8 samples.

Results

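The mRNAs described here were the 5 members of the Wnt pathway *Wnt16*, *Axin2*, *Fzd2*, *Wisp1* and *Csnk2a1*, taken by name from the 67 target mRNAs of 2 QuantiGene Plex panels. *Wnt16* was in the first panel, which held 33 targets, and the other 4 were in the second, which held 34. The current RefSeq symbol of *Wisp1* is *Ccn4*. All samples were formalin-fixed, paraffin-embedded sections of knee joints from mice whose articular cartilage had been injured through its full thickness at 8 weeks of age. The joint was dissected as a whole and its RNA pooled over bone, growth plate, cartilage, meniscus, synovium and capsule, and no uninjured knee was among the samples. There were 8 inbred strains, each labelled by its healing capacity. The healers were LG/J, MRL/MpJ and the recombinant inbred line LGXSM-6. The non-healers were SM/J, C57BL6/J and LGXSM-33, and the intermediate healers were LGXSM-5 and LGXSM-35. The 4 LGXSM lines are mosaics of the LG/J and SM/J genomes, and LG/J is an ancestor of MRL/MpJ, so the strains were not independent of each other. Each strain had 8 to 12 numbered signals per panel, called assay replicates here, which gave 76 in the first panel and 78 in the second. By the study's methods each strain had fewer mice than assay replicates, so that n counts assay replicates here, and which of them belong to 1 mouse is not given.

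Wnt proteins are secreted ligands that bind Frizzled receptors at the cell surface. In the canonical branch this stabilizes β-catenin, which enters the nucleus and switches on target genes together with factors of the TCF/LEF family. The pathway takes part in the formation of bone and in the maturation of growth plate and articular chondrocytes. *Wnt16* encodes a ligand that is made in bone and in joint tissue, and *Fzd2* encodes a receptor. *Axin2* encodes a scaffold of the complex that degrades β-catenin, and its gene is itself a target of the pathway, so that it works as a feedback inhibitor. *Wisp1* encodes a secreted matricellular protein whose gene was found as a Wnt target, and *Csnk2a1* encodes a catalytic subunit of casein kinase 2, an enzyme of many substrates that include components of the Wnt pathway.

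The 5 mRNAs differed in how their signals followed the reference genes, the mRNAs measured to correct for the amount of RNA. The signal is the brightness of the beads that capture an mRNA, and signals of different mRNAs are not compared here because each probe set has its own brightness. *Csnk2a1* signals ran from 8 to 233.5, with a median of 61.5 over the 78 assay replicates, and *Gapdh* and *Hprt1* together accounted for 97.1% of the variance of its log10 signal, the largest share among the 34 targets of its panel. *Axin2* ran from 6 to 56 (median 22.5), with 80.4% accounted for, and *Wisp1* from 9 to 84 (median 28.5), with 67.9%. *Wnt16* ran from 5 to 38 (median 16.0), and the 3 reference genes of the first panel accounted for 61.1%. *Fzd2* stood apart, with signals from 3 to 9, a median of 5 and 8 distinct values in all, and the reference genes accounted for 4.05% of its variance, the smallest share of the 34. Its signal was nearly flat while the reference genes varied over more than an order of magnitude, and all 78 of its values were under 10.

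**Figure D1:**
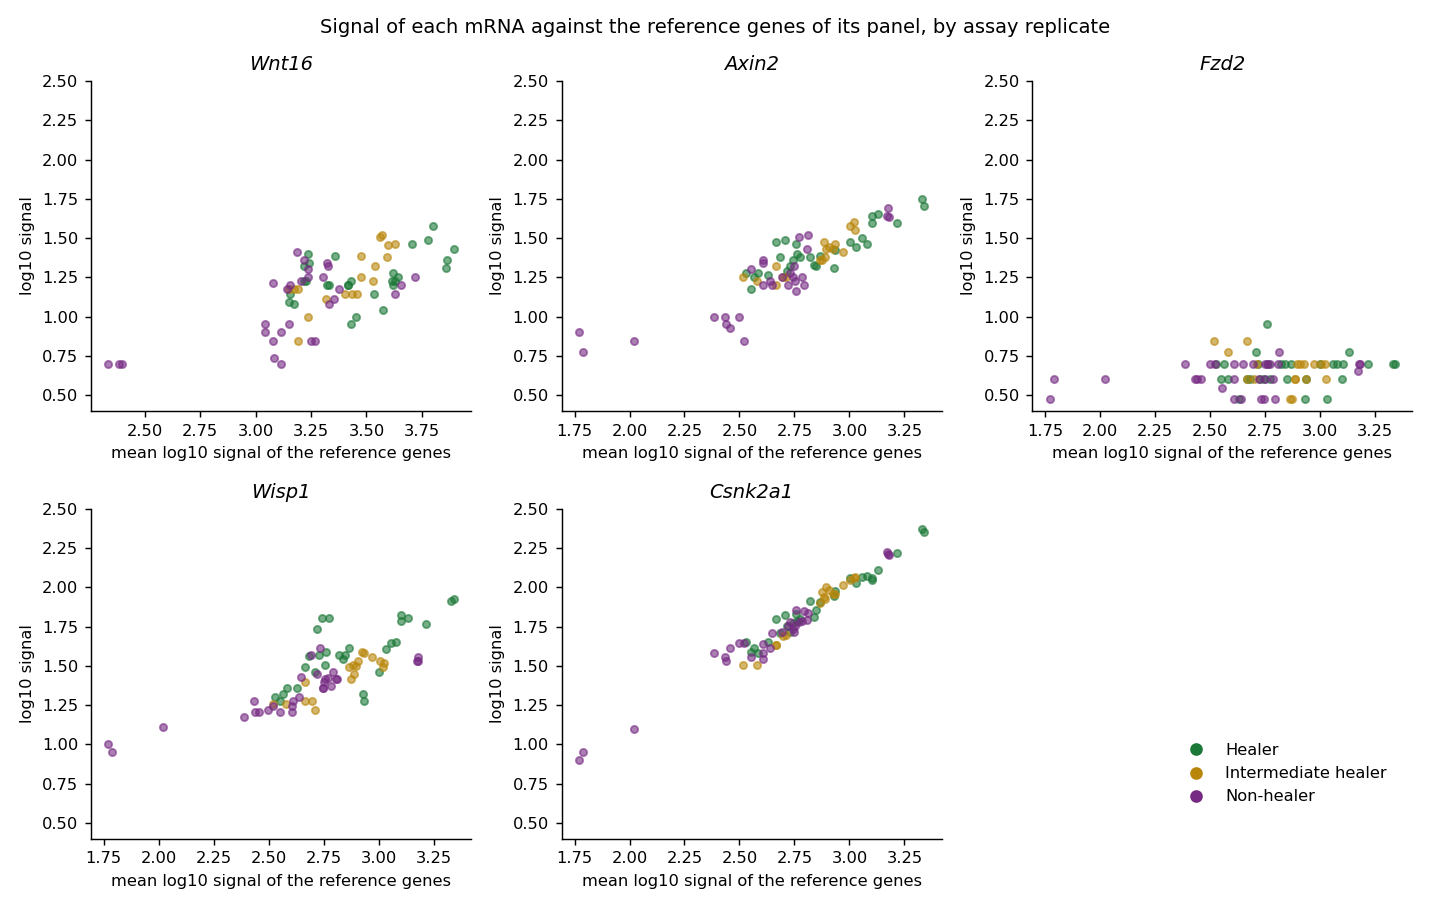
Log10 signal of each mRNA (vertical axis) against the mean log10 signal of the reference genes of its panel (horizontal axis), with a point for each assay replicate, coloured by healing class. *Csnk2a1* follows the reference genes closely, *Fzd2* stays between signals of 3 and 9 throughout, and the 3 points at the far left of each plot are the assay replicates of SM/J with the lowest reference signals.

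The normalized values used below are the residuals of the log10 signal after regression on the reference genes, so 0 stands for the signal that the reference genes predict and a difference of 0.1 for a ratio of about 1.26. The deposited values differed from residuals recomputed here by up to 0.137 for *Wnt16*, 0.0344 for *Wisp1*, 0.0168 for *Axin2*, 0.00941 for *Fzd2* and 0.00431 for *Csnk2a1*. For *Wnt16* both gave 0.172 for LG/J minus SM/J, 0.0855 for MRL/MpJ minus C57BL6/J and −0.0226 for LGXSM-6 minus LGXSM-33. Differences between assay replicates within a strain bear on all results. In each panel 3 of the SM/J assay replicates had reference signals far under those of the rest of the strain, with *Hprt1* at 13 to 15 against a strain median of 72.8 in the first panel and at 10 to 22 against 69 in the second. *Wnt16* had a signal of 5 in all 3 of them, and *Axin2* had 6 to 8 against 16 to 19 in the other SM/J assay replicates. Consecutive assay replicates also resembled each other. When the numbered signals of each strain were cut into blocks of 3, blocks accounted for 80.6% of the variance within strains for *Wnt16*, 79.2% for *Wisp1*, 71.2% for *Csnk2a1*, 70.4% for *Axin2* and 15.2% for *Fzd2*. Whether a block is a mouse is not given, and tests over assay replicates count repeated measures of a mouse as independent, which makes their P values too small if repeats are alike. The tests were therefore also made on the block means. In the first panel, where LG/J and SM/J had 8 assay replicates, the share and the block means printed for *Wnt16* have the block of 2 first, a layout chosen after seeing the data, and the tests have it last unless said otherwise.

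**Figure D2:**
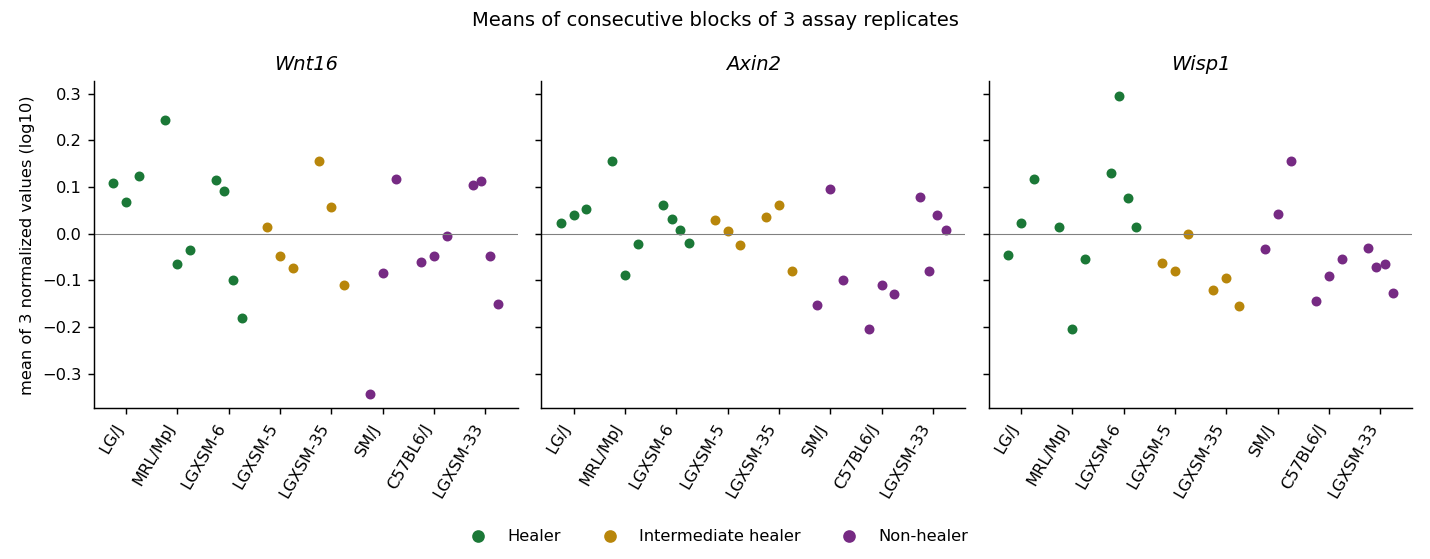
Means of consecutive blocks of 3 normalized values (vertical axis, log10) by strain for *Wnt16*, *Axin2* and *Wisp1*, with a point for each block, coloured by healing class (for *Wnt16* in LG/J and SM/J the first block holds 2 values). For *Wnt16* the blocks of SM/J run from −0.342 to 0.118, for *Wisp1* those of LGXSM-6 run from 0.0134 to 0.295, and for *Axin2* all blocks of C57BL6/J lie under −0.1.

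Strains differed in *Wisp1* (adjusted P = 2.11e-10), *Axin2* (5.40e-05) and *Csnk2a1* (0.0331) by limma's F test over assay replicates, and the test was not passed by *Wnt16* (0.151) or *Fzd2* (0.805). These 3 of 5 stood against 55 of all 67 mRNAs, or 82.1%. On the means of blocks of 3, *Wisp1* alone of the 5 passed (adjusted P = 0.0148), as did 13 of the 67 mRNAs, or 19.4%. The adjusted P was then 0.187 for *Axin2*, 0.805 for *Csnk2a1*, 0.838 for *Wnt16* and 0.939 for *Fzd2*. Between the strain with the highest and the strain with the lowest mean, the ratio of normalized expression was 1.79 for *Wisp1*, 1.53 for *Axin2*, 1.48 for *Wnt16*, 1.18 for *Fzd2* and 1.16 for *Csnk2a1*, while its median over the 67 mRNAs was 1.46. Of the 140 pairwise strain differences of the 5 mRNAs 26 were called, against 553 of 1876 over all targets, or 29.5%. In homogenates of a whole joint, fewer cells of a type and less RNA per cell cannot be told apart.

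**Figure D3:**
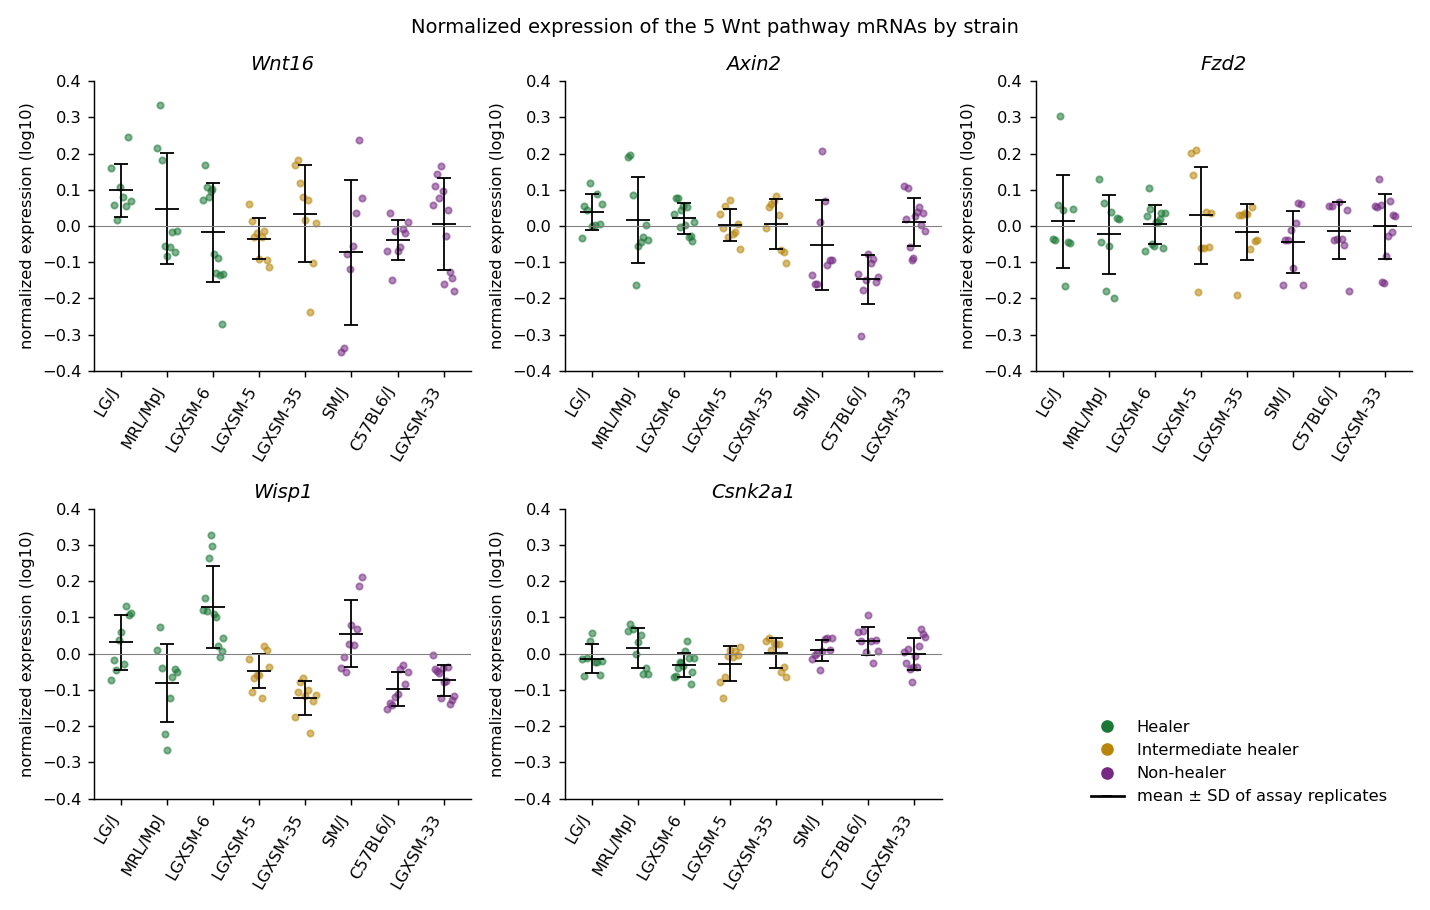
Normalized expression (vertical axis, log10) of the 5 mRNAs in the 8 strains, with a point for each assay replicate, coloured by healing class, and a bar for the mean ± SD. *Axin2* in C57BL6/J is under 0 in all 9 assay replicates, *Wisp1* in LGXSM-6 has the highest mean of any strain, 0.129, and the strain means of *Fzd2* and *Csnk2a1* all lie between −0.0444 and 0.0355.

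The ligand *Wnt16* was highest in LG/J, where its normalized log10 level had a lowest value of 0.0171, a median of 0.0750 and a highest value of 0.247 over 8 assay replicates, with a mean of 0.0989 ± 0.0728 (SD). It was lowest in SM/J, with values from −0.348 to 0.238, a median of −0.0664 and a mean of −0.0728 ± 0.200 (SD, n = 8). All LG/J values were above 0, and the SM/J values overlapped with nearly their whole range, with block means from −0.342 to 0.118. LG/J exceeded SM/J by 0.172 (SE 0.0623) on the log10 scale, a ratio of 1.48 with a 95% confidence interval from 1.12 to 1.98 (adjusted P = 0.0298), which was the single pair of 28 called for *Wnt16*. Without the 3 low-reference assay replicates of SM/J the difference was 0.165 (adjusted P = 0.0725), and on block means it was 0.153 (adjusted P = 0.492), or 0.203 (adjusted P = 0.364) with the block of 2 first. Beside it, the fat list mean (*Adipoq*, *Lep* and *Retn*) was −0.123 in LG/J, the lowest of the strains, against 0.0205 in SM/J. Assay replicates overlapped, from −0.246 to 0.0107 in LG/J and from −0.140 to 0.259 in SM/J. *Adipoq* carried the fat difference, at −0.259 against 0.0676, while *Lep* was at −0.0683 against 0.0322 and *Retn* at −0.0419 against −0.0383. The cartilage list mean was 0.128 against −0.0291, and assay replicates again overlapped, from −0.113 to 0.409 and from −0.401 to 0.214. Over the 8 strain means *Wnt16* had a negative r with all 3 fat markers, from −0.715 to −0.300, and a positive r with the 5 cartilage markers, from 0.123 to 0.483, and with the 3 growth plate markers, from 0.164 to 0.353. The part of these tissues in *Wnt16* was not tested. Residuals on *Gapdh* and *Hprt1* without *Actb*, whose slope for *Wnt16* was −0.762, gave 0.0842 (adjusted P = 0.381).

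In the other 6 strains the mean of *Wnt16* lay between −0.0376 in C57BL6/J and 0.0480 in MRL/MpJ, with SDs from 0.0550 to 0.154, and no neighbours in the order of the 8 strains were called different (adjusted P from 0.565 to 0.979). In MRL/MpJ the mean was carried by the first block, at 0.244 against −0.0647 and −0.0350 in the others, and the median of its 9 values was −0.0177. LGXSM-6, LGXSM-33 and LGXSM-35 each had a block above 0.1 and another under −0.1, so blocks of 1 strain lay farther apart than the means of LG/J and SM/J.

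The feedback inhibitor *Axin2* was lowest in C57BL6/J. Its 9 normalized log10 values there ran from −0.303 to −0.0769, with a median of −0.140 and a mean of −0.147 ± 0.0670 (SD), and its signals ran from 7 to 16 with a median of 10. All 7 pairs with C57BL6/J were called, with the other strain higher by a ratio that ran from 1.25 for SM/J to 1.53 for LG/J. The assay replicates of C57BL6/J did not overlap with those of LG/J, LGXSM-5 or LGXSM-6, and over the 5 mRNAs 6 of 140 pairs did not overlap, against 7.25% over all targets. Against LG/J, at 0.0382 ± 0.0487 (SD, n = 9), the difference was 0.186 (SE 0.0359, adjusted P = 3.13e-05).

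*Mmp9*, a protease of osteoclasts and myeloid cells, had its highest strain mean in C57BL6/J, at 0.257 on the normalized log10 scale, and the mean of *Mmp9* and *Ccl3*, the myeloid list, was 0.142 there against −0.0955 to 0.0576 in the other strains. *Mmp9* carried that mean, since *Ccl3* was at 0.0266 in C57BL6/J and was highest in LGXSM-35, at 0.315. The part of such cells in the low *Axin2* of C57BL6/J was not tested.

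Among the other 7 strains 1 of the 21 pairs of *Axin2* was called. SM/J, at −0.0517 ± 0.124 (SD, n = 9), was under LG/J by 0.0899 (SE 0.0359, adjusted P = 0.0489), a call that was lost with recomputed residuals (0.0862, adjusted P = 0.0598) and with a variance trend (adjusted P = 0.0509). The 6 strains from LG/J down to LGXSM-5, at 0.00314 ± 0.0436 (SD, n = 9), differed from their neighbours in order by 0.0175 or less (adjusted P of 0.731 or more). The SM/J value turned on the 3 low-reference assay replicates, whose block mean was 0.0954 while the other blocks of SM/J were at −0.152 and −0.0985. Without them LG/J exceeded SM/J by 0.163 (adjusted P = 1.47e-04), SM/J against C57BL6/J was no longer called (a difference of 0.0221, adjusted P = 0.658), and 12 pairs in place of 8 were called. On block means no pair of *Axin2* was called, and the smallest adjusted P was 0.0815, for LG/J against C57BL6/J.

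The receptor *Fzd2* did not pass the test over strains, and none of its pairs was called. The strain means ran from −0.0444 ± 0.0863 (SD, n = 9) in SM/J to 0.0289 ± 0.134 (SD, n = 9) in LGXSM-5, and the SDs within strains ran from 0.0528 to 0.134, against a range of 0.0733 between strain means. The median signal was 4 or 5 in every strain. As a ratio to the reference genes the strain test of *Fzd2* passed (adjusted P = 3.46e-04), as it did for 62 of the 67 mRNAs. Its highest normalized value, 0.304 in LG/J, came from a signal of 9 where the median of that strain was 4.

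The Wnt target *Wisp1* was highest in LGXSM-6. Its 12 normalized log10 values there ran from −0.00978 to 0.327 with a median of 0.113 and a mean of 0.129 ± 0.113 (SD), and its signals ran from 35 to 84. SM/J followed at 0.0551 ± 0.0926 (SD, n = 9) and LG/J at 0.0317 ± 0.0757 (SD, n = 9). The other 5 strains were all under 0, from −0.0478 ± 0.0481 (SD, n = 9) in LGXSM-5 to −0.123 ± 0.0468 (SD, n = 9) in LGXSM-35, where the highest of the 9 values was −0.0684.

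No pair among these 5 low strains was called out of 10, and 14 of the 15 pairs between the 3 highest and the 5 lowest strains were, the exception being LG/J against LGXSM-5. LGXSM-6 exceeded LGXSM-35 by 0.252 (SE 0.0339) on the log10 scale, a ratio of 1.79 with a 95% confidence interval from 1.53 to 2.09 (adjusted P = 7.35e-09), without overlap of their assay replicates. It also did not overlap with C57BL6/J, over which its ratio was 1.68 (adjusted P = 1.40e-07). No neighbours in the order of strains were called, with adjusted P of 0.0893 for LG/J over LGXSM-5 and 0.0918 for LGXSM-6 over SM/J. On the means of blocks of 3, 4 of the 28 pairs were still called, against 3.73% over all targets, and each was LGXSM-6 over another strain (LGXSM-35, C57BL6/J, LGXSM-33 and MRL/MpJ, adjusted P from 0.0116 to 0.0384). Within LGXSM-6 the second block, at 0.295, was well above the other 3, which were at 0.130, 0.0773 and 0.0134.

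LGXSM-6 and LGXSM-35, at the ends of the *Wisp1* order, also stood out in markers of cartilage and bone. All 5 cartilage markers (*Col2a1*, *Acan*, *Comp*, *Mia1* and *Sox9*) and all 3 bone markers (*Bglap1*, *Col1a1* and *Runx2*) were among their 2 highest strains in LGXSM-6, and 3 of the 5 and all 3 of the bone markers were among their 2 lowest in LGXSM-35. The mean normalized level over the cartilage list was 0.170 in LGXSM-6, with assay replicates from 0.0586 to 0.280, and −0.111 in LGXSM-35, with assay replicates from −0.200 to −0.0184. The lists did not follow *Wisp1* in every strain, since SM/J, second in *Wisp1*, had a cartilage list mean of −0.0291, LGXSM-33, low in *Wisp1*, had one of 0.0707, and LGXSM-5 had the lowest, −0.174. Over the 3 growth plate markers (*Ihh*, *Col10a1* and *Mmp13*) it was 0.114 and −0.135, and over the bone list 0.105 and −0.131. No marker of these lists had a signal of 0, the lowest being 4 for *Ihh*. Over the 8 strain means *Wisp1* was most like *Mia1*, which encodes a protein secreted by chondrocytes (r = 0.870, rho = 0.667), and *Col2a1*, the main collagen of cartilage (r = 0.850, rho = 0.810). Next came *Bglap1*, which encodes osteocalcin of osteoblasts (r = 0.826, rho = 0.810). With LGXSM-6 and SM/J left out, as the 2 strains most distant from the median *Wisp1* level, r was 0.822, 0.844 and 0.644. All 5 markers of cartilage, 3 of growth plate and 3 of bone had a positive r with *Wisp1*, from 0.186 to 0.870, and 1 of the 3 fat markers and neither myeloid marker had. The part of the tissue makeup in the strain differences of *Wisp1* was not tested.

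**Figure D4:**
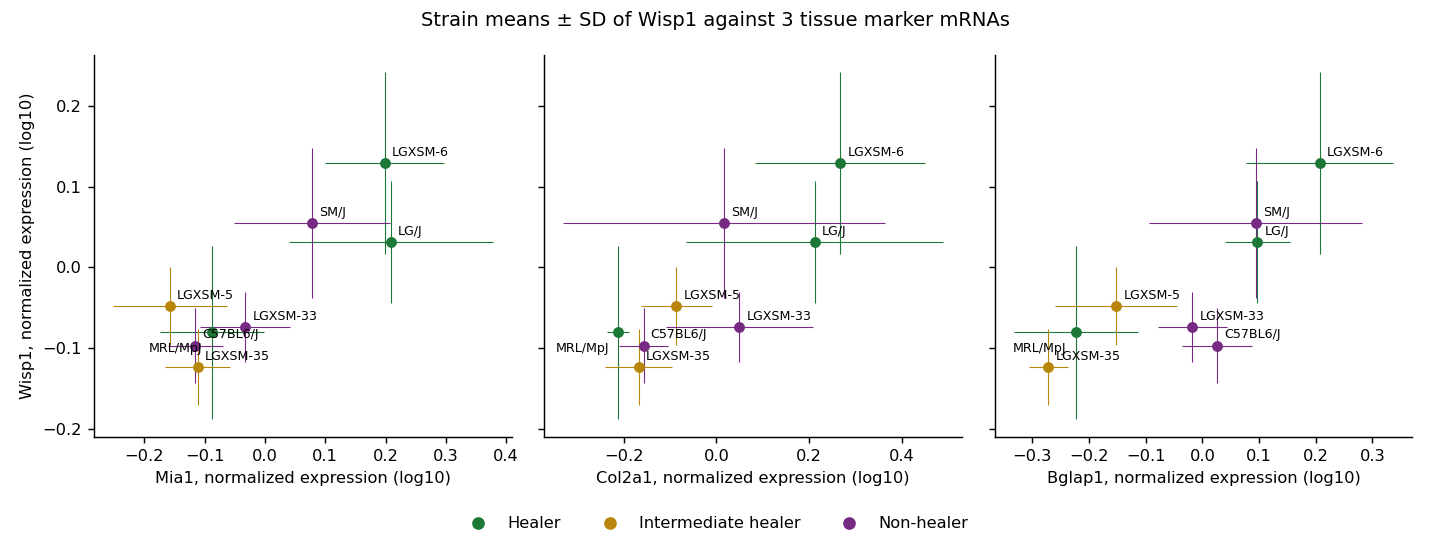
Strain means ± SD over assay replicates of normalized *Wisp1* (vertical axis, log10) against those of *Mia1*, *Col2a1* and *Bglap1* (horizontal axes, log10), with a point for each strain, coloured by healing class. LGXSM-6 and LG/J lie to the right in all 3 plots, SM/J has a high *Wisp1* at a *Col2a1* near 0, and LGXSM-35 has the lowest *Wisp1*, with *Bglap1* at −0.272.

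The kinase subunit *Csnk2a1* varied least, and the range of its strain means ranked 66 of the 67 mRNAs. The means ran from −0.0305 ± 0.0327 (SD, n = 12) in LGXSM-6 to 0.0355 ± 0.0384 (SD, n = 9) in C57BL6/J. C57BL6/J exceeded LGXSM-6 by a ratio of 1.16 with a 95% confidence interval from 1.06 to 1.27 (adjusted P = 0.00663) and LGXSM-5 by a ratio of 1.16 (adjusted P = 0.0170), and these were its 2 called pairs of 28. On block means neither was called (adjusted P = 0.414 and 0.484).

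The panels held 2 other mRNAs of the pathway, and neither passed the F test over strains on the deposited normalized values. *Wnt3a*, a canonical ligand, had signals of 3 to 14, and its adjusted P was 0.0540 (0.00809 with the first panel regressed without *Actb*). LGXSM-5, at 0.102 ± 0.173 (SD, n = 9), exceeded LG/J, SM/J, C57BL6/J and LGXSM-35 by ratios from 1.35 to 1.43 in the 4 called pairs of *Wnt3a*. *Lef1*, a nuclear partner of β-catenin, had an adjusted P of 0.171 and 1 called pair, LG/J over MRL/MpJ by a ratio of 1.28 (adjusted P = 0.0297). On block means no pair of either was called.

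A healer was set against a non-healer in 3 pairs of strains, a choice made here: the parents of the cross, MRL/MpJ and C57BL6/J, and the recombinant lines LGXSM-6 and LGXSM-33. LG/J exceeded SM/J in *Wnt16* and *Axin2* (values above), 2 of the 5, against 28.4% of all 67 mRNAs. MRL/MpJ exceeded C57BL6/J in *Axin2* alone, by 0.163 (SE 0.0359), a ratio of 1.46 with a 95% confidence interval from 1.23 to 1.72 (adjusted P = 2.45e-04), against 17.9% of all targets. The 9 values of MRL/MpJ ran from −0.164 to 0.195 with a median of −0.0292, so they overlapped with those of C57BL6/J. LGXSM-6 exceeded LGXSM-33 in *Wisp1* alone, by 0.203 (SE 0.0313), a ratio of 1.59 with a 95% confidence interval from 1.38 to 1.84 (adjusted P = 2.98e-07), against 22.4% of all targets. On block means this *Wisp1* difference was still called (adjusted P = 0.0302). The others were not, with an adjusted P of 0.135 for MRL/MpJ over C57BL6/J in *Axin2* and 0.492 for LG/J over SM/J in both *Wnt16* and *Axin2*.

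The differences between these pairs were tested themselves. The excess of *Wisp1* in LGXSM-6 over LGXSM-33 was larger than the difference of LG/J and SM/J, which was −0.0233, by 0.226 (SE 0.0479, adjusted P = 2.70e-04), and larger than that of MRL/MpJ and C57BL6/J, 0.0161, by 0.187 (SE 0.0479, adjusted P = 0.00278). The excess of *Axin2* in MRL/MpJ over C57BL6/J was larger than the difference of LGXSM-6 and LGXSM-33, 0.00917, by 0.154 (SE 0.0475, adjusted P = 0.0141). These 3 were among 29 of 201 such tests over all targets, or 14.4%, and none passed on block means (adjusted P of 0.241, 0.397 and 0.515). Without normalization the *Wisp1* differences were as large, at −0.240 and −0.210 for the other pair minus LGXSM-6 and LGXSM-33, but were not called (adjusted P of 0.116 and 0.168). That of *Axin2* as a ratio to the reference genes was 0.195 (adjusted P = 0.0646). For *Wnt16* the largest difference between pairs, LG/J and SM/J against LGXSM-6 and LGXSM-33, was 0.194 (SE 0.0804, adjusted P = 0.102).

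Of these 4 called differences, *Wisp1* in LGXSM-6 over LGXSM-33 alone was called on all 3 scales of normalization. As a ratio to the mean of the reference genes it was 0.191 (adjusted P = 0.00528), and without normalization 0.385 (adjusted P = 1.39e-07), where the median difference of the 67 mRNAs was −0.0653 and 0.204. *Wnt16* in LG/J over SM/J turned to −0.129 as a ratio, where the median of all targets was −0.0905, and *Axin2* to −0.0251, with neither called (adjusted P = 0.273 and 0.761). *Axin2* in MRL/MpJ over C57BL6/J was 0.0705 as a ratio (adjusted P = 0.365), against a median of −0.0786, and 0.397 without normalization (adjusted P = 1.51e-06), against a median of 0.231. LGXSM-6 minus LGXSM-33 as a ratio was −0.252 for *Wnt16* (adjusted P = 0.00538) and −0.125 for *Axin2* (adjusted P = 0.0483), against −0.0226 and 0.00917 in the deposited values, where neither was called. MRL/MpJ minus C57BL6/J as a ratio was −0.320 for *Fzd2* (adjusted P = 0.0202) and −0.0620 for *Csnk2a1* (adjusted P = 0.0362). The *Fzd2* signals were nearly flat, from 3 to 9, and their difference without normalization was 0.00568 (adjusted P = 0.930). Without normalization MRL/MpJ minus C57BL6/J was 0.333 for *Wnt16* (adjusted P = 5.63e-04), 0.175 for *Wisp1* (adjusted P = 0.0289) and 0.264 for *Csnk2a1* (adjusted P = 0.0293).

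**Figure D5:**
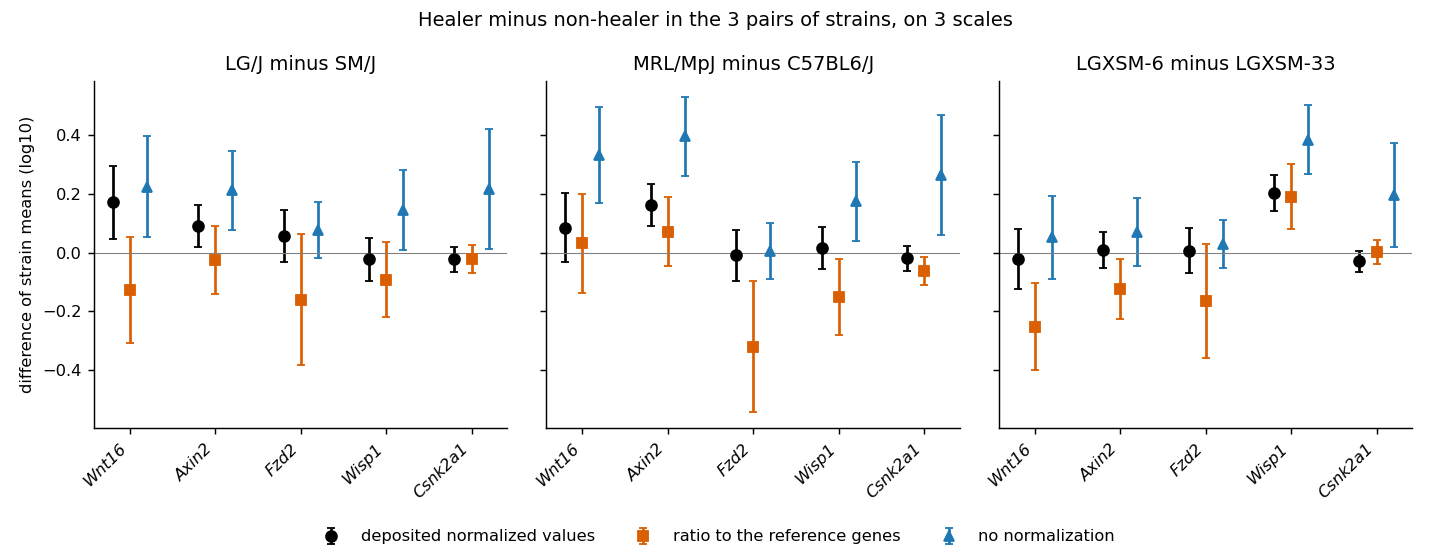
Difference of strain means on the log10 scale (vertical axis), healer minus non-healer, for the 5 mRNAs in the 3 pairs of strains, with bars for the 95% confidence interval. Circles are the deposited normalized values, squares the ratio to the mean of the reference genes and triangles the log10 signal without normalization. *Wisp1* in LGXSM-6 minus LGXSM-33 lies above 0 on all 3 scales, while *Wnt16* and *Axin2* in LG/J minus SM/J lie under 0 as a ratio.

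With the strain as the unit, none of the 5 mRNAs passed the test between the 3 healers and the 3 non-healers, as none of the 67 did after adjustment (0%; 4 of the 67 and none of the 5 had an unadjusted P under 0.05 by limma). For *Axin2* the means of the healers were 0.0382, 0.0207 and 0.0158, and those of the non-healers were 0.0116, −0.0517 and −0.147. All 3 healers were thus above all 3 non-healers, as was one class above the other in 9 of the 67 mRNAs, or 13.4%, but the lowest healer and the highest non-healer were 0.00419 apart. The class difference of *Axin2* was 0.0874 (SE 0.0420) on the log10 scale, a ratio of 1.22 with a 95% confidence interval from 0.979 to 1.53 (limma adjusted P = 0.593). Its exact permutation P was 0.1, the smallest that 3 strains against 3 can give. Without C57BL6/J the class difference of *Axin2* was 0.0450, and its intermediate healers, at 0.00537 and 0.00314, lay under the healers and among the non-healers.

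For *Wnt16* the healer means were 0.0989, 0.0480 and −0.0177 and the non-healer means 0.00486, −0.0376 and −0.0728, and the classes overlapped. The difference was 0.0782 (SE 0.0412), a ratio of 1.20 with a 95% confidence interval from 0.962 to 1.49 (limma adjusted P = 0.605, exact permutation P = 0.2). It was 0.0503 without LG/J, and 0.0297 when each strain was given by its median assay replicate. *Wisp1* differed by 0.0652 (SE 0.0620), with a ratio whose interval ran from 0.836 to 1.61, and healers held both its highest strain, LGXSM-6, and a low one, MRL/MpJ. The difference was 0.0140 without LGXSM-6, 0.119 without MRL/MpJ, 0.112 without SM/J and 0.0360 without C57BL6/J. For *Fzd2* the difference was 0.0179 (SE 0.0301) and for *Csnk2a1* −0.0238 (SE 0.0295), with intervals of the ratio from 0.888 to 1.22 and from 0.810 to 1.11. Without SM/J the difference of *Fzd2* was 0.00555, and that of *Csnk2a1* was −0.0132 without LGXSM-6, −0.0133 without C57BL6/J and −0.0365 without MRL/MpJ. The exact permutation P of *Wisp1*, *Fzd2* and *Csnk2a1* was 0.6, 0.4 and 0.3. As a ratio to the reference genes the class difference of *Axin2*, *Wnt16*, *Fzd2* and *Wisp1* was negative (−0.0265, −0.116, −0.215 and −0.0176), and the median over the 67 mRNAs was then −0.0792.

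The 4 recombinant lines can be set against their parents LG/J and SM/J. For *Wnt16* and *Axin2* the means of all 4 lines lay between those of the parents. The parents themselves were not called different on block means (adjusted P = 0.492 for both mRNAs). As a ratio to the reference genes LG/J minus SM/J turned negative, at −0.129 for *Wnt16* and −0.0251 for *Axin2*. For *Wisp1* the parents were 0.0233 apart and none of the lines lay between them, with LGXSM-6 above both (over LG/J by 0.0973, adjusted P = 0.0229, and over SM/J by 0.0740, adjusted P = 0.0918) and the other 3 lines under both. LGXSM-33 and LGXSM-35 were called lower than each parent, and LGXSM-5 was called lower than SM/J (adjusted P = 0.0243) but not than LG/J (adjusted P = 0.0893). On block means none of the pairs of a line and a parent was called for *Wisp1* (adjusted P from 0.110 to 0.574). For *Csnk2a1*, LGXSM-5 and LGXSM-6 lay under both parents and the other 2 lines between them, and for *Fzd2*, LGXSM-5 lay above both parents, with no such pair called.

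By the pattern over the 8 strain means, and among the mRNAs reported here, *Wnt16* was most like *Ulk1*, an autophagy kinase (r = 0.876, rho = 0.786), and *Pcna*, the sliding clamp of DNA replication (r = 0.773, rho = 0.762). *Axin2* was most like *Xrcc2*, of homologous recombination repair (r = 0.839, rho = 0.762), and *Pcna* (r = 0.726, rho = 0.857). *Fzd2* was most like *Cdkn2a*, an inhibitor of the cell cycle (r = 0.783, rho = 0.833), and the cytokine *Il6* (r = 0.702, rho = 0.643). *Csnk2a1* was most like *Atg7*, of autophagy (r = 0.732, rho = 0.738), and the protease *Mmp9* (r = 0.586, rho = 0.452). The strain means of *Fzd2* and *Wnt16* had not passed the F test, so their patterns may be assay spread. With the 2 strains most distant from the member's median left out, r was 0.720 and 0.646 for *Wnt16*, 0.643 and 0.965 for *Axin2*, 0.674 and 0.642 for *Fzd2*, and 0.692 and 0.386 for *Csnk2a1*. These values describe 8 related strains, and mRNAs of 1 panel share their assay replicates and reference genes. Within strains, over the 78 assay replicates of the second panel and after the strain means were removed, r was 0.427 between *Axin2* and *Wisp1*, 0.303 between *Axin2* and *Fzd2*, 0.293 between *Axin2* and *Csnk2a1* and 0.255 between *Axin2* and *Lef1*. The other pairs of these mRNAs within the panel had r from 0.0559 to 0.197.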

How the data were processed

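The authors took the log10 of QuantiGene Plex bead signals and regressed each target mRNA on the reference genes of its panel (*Gapdh*, *Hprt1* and *Actb*, or *Gapdh* and *Hprt1*). Both the log10 signals and the residuals were deposited, in log10 units, for each assay replicate. The residuals were used as filed, with no filter and 0 columns left out. The study's methods name a set number of bead events for each bead region and a subtraction of the background signal. Bead counts and background signals of the single values are not given, so the precision of a single value is unknown. Deposited strain averages and the authors' fold changes against C57BL6/J were not used, and 1 mRNA is not reported here.

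Strains were compared with limma 3.58.1 in R 4.3.3 (F test, all 28 pairs), and healing classes with limma on the 8 strain means and a two-sided exact permutation test (scipy 1.17.1). P values were adjusted by Benjamini-Hochberg over the 67 targets, over targets times pairs, or over targets times the 3 differences between healer pairs, with a threshold of 0.05. Fold changes are 10 raised to the log10 difference. The steps were tested on simulated data whose assay replicates were drawn independently, without blocks. That test therefore cannot show how repeats that are alike affect the calls. Alternatives were other normalizations, a minimum median signal of 10, a variance trend, means of blocks of 3, replicate number as a block, left-out strains and left-out assay replicates. Leaving out low-reference assay replicates or *Actb*, and placing the short block first, were chosen after seeing the data. The members and lists were chosen with earlier results of these data known. The mRNAs named are the 5 members, *Wnt3a*, *Lef1*, the reference genes, the tissue markers and the 2 mRNAs most like each member. Healing scores and miRNAs were not analysed here.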

Additional observations from a re-analysis of the deposited data

Results flagged for a closer look

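In 30 groups of 8 or 9 assay replicates, 4 held a value far from the rest by Dixon's test, which flags about 1 in 20 groups by chance. *Axin2* in C57BL6/J had a lowest normalized value of −0.303, at a signal of 7. *Fzd2* had a highest value of 0.304 in LG/J, at a signal of 9, and lowest values of −0.180 in C57BL6/J and −0.190 in LGXSM-35, both at a signal of 3.

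The difference between healer and non-healer itself differed between pairs of strains in 3 tests. For *Wisp1*, LG/J minus SM/J less LGXSM-6 minus LGXSM-33 was −0.226, and MRL/MpJ minus C57BL6/J less LGXSM-6 minus LGXSM-33 was −0.187. For *Axin2*, MRL/MpJ minus C57BL6/J less LGXSM-6 minus LGXSM-33 was 0.154. None of the 3 passed on the means of blocks of 3.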

How the results depend on the processing

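The unit of replication decided most calls. On the means of blocks of 3, with the short block last or first, 13 or 9 of the 67 mRNAs differed between strains in place of 55, 1 of the 5 members in place of 3, and 70 or 54 pairs were called in place of 553. The adjusted P of the strain test was then 0.187 or 0.201 for *Axin2* and 0.805 or 0.791 for *Csnk2a1*. With the number of the assay replicate as a replicate block, 54 mRNAs, 3 members and 559 pairs were called, LG/J over SM/J in *Axin2* was lost (adjusted P = 0.0604), and 3 pairs of *Wnt3a* were called in place of 4. The numbers are not known to pair samples.

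As a ratio to the reference genes all 5 members and 62 of the 67 mRNAs differed between strains, with an adjusted P of 1.32e-04 for *Wnt16* and 3.46e-04 for *Fzd2*, and without normalization *Wnt16* passed (3.08e-05), as did 64 of the 67 mRNAs, and 862 pairs were called. The class difference as a ratio was −0.116 for *Wnt16*, −0.0265 for *Axin2*, −0.215 for *Fzd2*, −0.0176 for *Wisp1* and −0.254 for *Wnt3a*, and without normalization it was 0.226 for *Csnk2a1* and 0.170 for *Lef1*. The pair LG/J minus SM/J as a ratio was −0.129 for *Wnt16*, −0.0251 for *Axin2* and −0.160 for *Fzd2*, and without normalization 0.145 for *Wisp1* and 0.218 for *Csnk2a1*. MRL/MpJ minus C57BL6/J was −0.151 for *Wisp1* as a ratio, and 0.00568 for *Fzd2* and 0.264 for *Csnk2a1* without normalization. LGXSM-6 minus LGXSM-33 as a ratio was −0.125 for *Axin2*, −0.165 for *Fzd2* and 0.00192 for *Csnk2a1*, and without normalization 0.0522 for *Wnt16* and 0.196 for *Csnk2a1*. The cause was not tested.

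Leaving out a strain moved the class difference between 0.0503 and 0.109 for *Wnt16*, 0.0450 and 0.124 for *Axin2*, 0.00555 and 0.0285 for *Fzd2*, 0.0140 and 0.119 for *Wisp1*, −0.0365 and −0.0132 for *Csnk2a1*, −0.00817 and 0.0392 for *Wnt3a*, and −0.0247 and 0.0288 for *Lef1*, with 0 mRNAs called in all 8 fits. *Lef1*, at −0.00271, was also positive without low-reference assay replicates (0.00617), with medians (0.0139) and in the 6 strains of the cross (0.0121). *Fzd2* and *Wnt3a* had median signals under 10 and were left out of the fit with that minimum.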
